A study of Mus musculus with 6 samples.

Results

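The genes described here are the members of the HoxB, HoxC and HoxD clusters, the Evx genes beside the Hox clusters, and the ParaHox genes Cdx1, Cdx2, Cdx4, Pdx1, Gsx1 and Gsx2. They were chosen by symbol, with earlier results of these data known, and all 36 were found among the 24012 regions of the read count table. HoxB had 10 members, HoxC 9, HoxD 9, Evx 2, Cdx 3, and the group of Pdx1 and Gsx genes 3. Chromatin immunoprecipitation and sequencing had been done for di- and trimethylation of histone H3 lysine 79 (H3K79me2 and H3K79me3), with an Abcam and a Diagenode antibody. Primary hematopoietic progenitors of mouse bone marrow had been transduced with a retrovirus for MLL-AF9, a fusion protein of acute leukemia, as MLL-AF9 (D546R), MLL-AF9 (D544R) or MLL-AF9 (WT), named D546R, D544R and WT here. All cells thus carried a fusion construct, and WT is wild type only in the fusion. There was 1 library for each genotype in each mark, 6 libraries over 3 genotypes, with no replicates. No significance test between genotypes was possible. Age, sex and strain of the mice, pooling and the promoter of the retrovirus were not given in the sources used here.

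Hox genes encode homeodomain transcription factors that set position along the body axis, and they lie in clusters in which gene order follows the order of their domains. ParaHox genes descend from a sister cluster and act in gut, pancreas and forebrain, and Cdx proteins also activate Hox genes in the embryo. DOT1L is the enzyme that methylates H3K79, a mark of transcribed gene bodies. It binds AF9, and MLL-AF9 carries AF9 sequence to MLL targets, of which the HoxA genes and Meis1 are the classical examples in leukemia. The study varied the recruitment of DOT1L to the fusion, and the Hox genes outside HoxA are the close relatives of its best known targets.

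The promoter sequences of 3 genes named in the results are shown. No result below uses these sequences, and whether they bear on the marks was not tested. Hoxd9 and Hoxa9 are paralogues at the same place in their clusters with very different levels of the marks, and Hoxd12 was the one member whose widened H3K79me3 interval excluded no change. They run from 250 bases before to 50 bases after the start (RefSeq, GRCm38.p6) and are not the mm9 regions that were counted. Capitals mark CG dinucleotides, which read the same on both strands. Of all 27025 genes with a promoter sequence, 26.8% held at least as many CG as Hoxd9, 68.1% at least as many as Hoxa9 and 38.5% at least as many as Hoxd12.
Hoxd9, chr2:74697513-74697812, + strand: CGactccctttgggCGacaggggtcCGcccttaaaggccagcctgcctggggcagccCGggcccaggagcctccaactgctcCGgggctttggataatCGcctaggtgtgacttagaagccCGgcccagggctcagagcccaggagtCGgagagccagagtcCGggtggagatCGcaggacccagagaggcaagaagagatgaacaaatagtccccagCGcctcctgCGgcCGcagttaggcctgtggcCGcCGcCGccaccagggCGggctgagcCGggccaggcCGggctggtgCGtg
Hoxa9, chr6:52227321-52227620, - strand: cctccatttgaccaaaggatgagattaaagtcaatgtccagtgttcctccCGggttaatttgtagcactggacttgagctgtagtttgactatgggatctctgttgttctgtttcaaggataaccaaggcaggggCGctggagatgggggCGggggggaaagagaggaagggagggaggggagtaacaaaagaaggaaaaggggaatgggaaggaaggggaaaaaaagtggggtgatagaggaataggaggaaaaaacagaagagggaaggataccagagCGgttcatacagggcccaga
Hoxd12, chr2:74674763-74675062, + strand: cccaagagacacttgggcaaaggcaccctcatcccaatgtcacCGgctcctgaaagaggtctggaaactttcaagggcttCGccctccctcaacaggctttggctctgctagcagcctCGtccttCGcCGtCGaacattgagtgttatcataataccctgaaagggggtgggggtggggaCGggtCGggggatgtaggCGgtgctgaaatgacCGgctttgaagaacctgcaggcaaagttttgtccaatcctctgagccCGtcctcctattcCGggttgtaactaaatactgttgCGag
A promoter sequence was found for 20 of the 36 members and for 9 of the 11 HoxA genes. The members held a median of 13.5 CG per 300 bases, with 4 in Hoxd4 and 37 in Hoxd13. The HoxA promoters held a median of 15 and all genes a median of 7. Hoxa9 itself held 4. Only 3 HoxB genes and Hoxc4 are among the matched members, so the medians do not describe the whole set.

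MicroRNA genes inside the clusters were counted as regions of their own. The mature 5p sequences of those in HoxB, HoxC and HoxD that share a seed across clusters are shown. Their regions lie within the cluster spans and were read in the same libraries. The region of Mir10a overlaps that of Hoxb4, Mir10b those of Hoxd3 and Hoxd4, and Mir196a-2 that of Hoxc10. Mir196a-1 overlaps no member. Capitals mark the seed, bases 2 to 8.
mmu-miR-10a-5p (HoxB): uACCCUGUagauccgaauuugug
mmu-miR-10b-5p (HoxD): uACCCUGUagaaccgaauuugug
mmu-miR-196a-5p (Mir196a-1 in HoxB, Mir196a-2 in HoxC): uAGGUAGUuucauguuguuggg
miR-10a and miR-10b share the seed ACCCUGU. The same mature miR-196a-5p with the seed AGGUAGU comes from Mir196a-1 and Mir196a-2. Their counts are given with the cluster surroundings.

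The libraries held 3558329 counts (D546R), 4287873 (D544R) and 5993741 (WT) in H3K79me2, and 6652571 (D546R), 5207395 (D544R) and 5859821 (WT) in H3K79me3. Of 4591 autosomal regions shorter than 5 kb, 13.0% had no count in D546R, 2.44% in D544R and 1.83% in WT in H3K79me2. In H3K79me3 the shares were 33.5% in D546R, 16.2% in D544R and 17.6% in WT. Read as repeated reads of the same fragments, these shares gave an upper estimate of reads per independent fragment. It was 4.78 (D546R), 3.26 (D544R) and 4.05 (WT) in H3K79me2, and 18.6 (D546R), 8.12 (D544R) and 9.73 (WT) in H3K79me3. Every 95% interval below, unless called a counting interval, was computed on counts divided by these numbers and is called a fragment interval. Neither interval covers variation between cultures. Most of 12 progenitor and myeloid marker genes of blood cells carried H3K79me2. Those at 2 or more times the H3K79me2 density of olfactory receptor regions numbered 9 (D546R), 10 (D544R) and 9 (WT). Cd34 and Csf3r were lower, at 1.20 and 1.55 in D546R, 1.20 and 1.21 in D544R, and 1.19 and 0.98 in WT. The 12 genes summed to 6.50 (D546R), 4.96 (D544R) and 4.40 (WT) times that density. Lymphoid, erythroid and other-tissue lists summed to between 0.72 and 0.94 times it in every H3K79me2 library. In H3K79me3 the blood list stood at 2.08 (D546R), 1.73 (D544R) and 2.01 (WT) as a sum. Only 4 (D546R), 2 (D544R) and 6 (WT) of its 12 genes reached 2 times the olfactory receptor density there.

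The 36 genes held very few reads. In H3K79me2 the median count per member was 8 in D546R (0 to 54), 9 in D544R (2 to 67) and 13 in WT (3 to 103), and the highest was Hoxd3 in each library. In H3K79me3 the median was 22.5 in D546R (0 to 189), 13 in D544R (0 to 99) and 20.5 in WT (0 to 76). Division by the upper estimate of reads per fragment gives a low estimate of fragments. By it a median member rested on 1.67 (D546R), 2.76 (D544R) and 3.21 (WT) fragments in H3K79me2. In H3K79me3 it rested on 1.21 in D546R, 1.60 in D544R and 2.11 in WT. Member regions were short, with a median of 5.40 kb against 15.9 kb over all regions. A count of 0 allows up to 3 counts by counting error alone, and more where reads come as repeated fragments. It was read at 4 members in D546R, 0 in D544R and 0 in WT in H3K79me2, and at 3 members in D546R, 1 in D544R and 2 in WT in H3K79me3. The regions of Hoxb3 and Hoxb4, Hoxb5 and Hoxb6, Hoxb7 and Hoxb8, and Hoxd3 and Hoxd4 overlap, so these 8 members can share reads in pairs. Hoxd4 lies wholly within Hoxd3, and the other pairs overlap only near their ends.

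**Figure D1:**
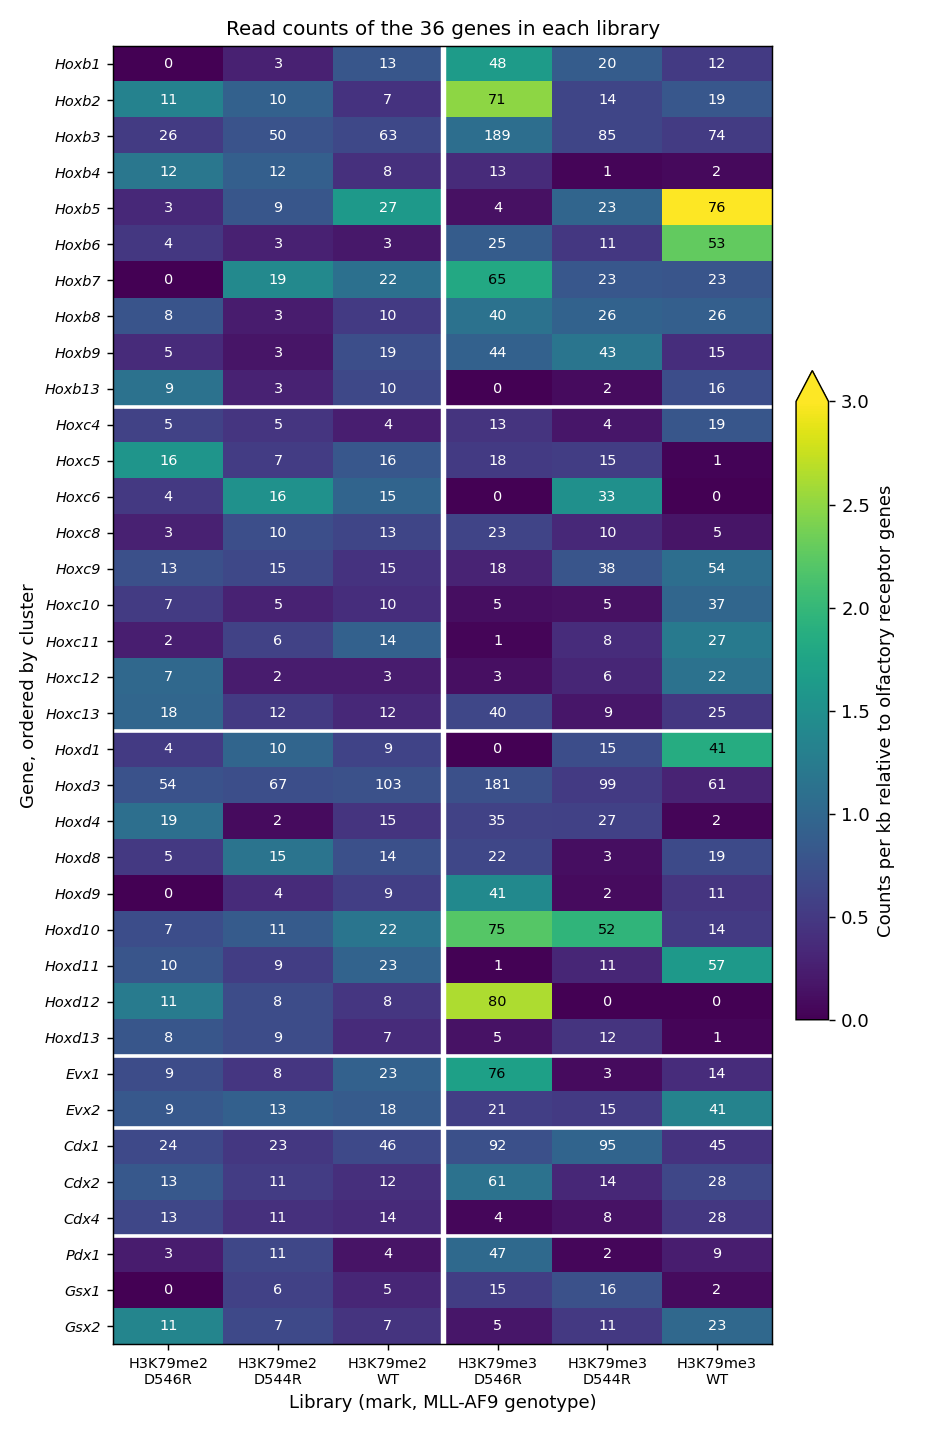
Read counts of the 36 genes (rows, by cluster) in the 6 libraries (columns, D546R, D544R and WT per mark), with the count printed in each cell and the colour giving counts per kb relative to olfactory receptor regions of the same library. Most cells are dark (low) in H3K79me2, where no member reaches 2 times the olfactory receptor density. Brighter (higher) cells in H3K79me3 fall on different genes in each library.

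Summed over the set, the Hox and ParaHox genes outside HoxA lay below the level of olfactory receptor genes, which are silent in blood. Density here is counts per kb of region, divided by that of the 1122 olfactory receptor regions in the same library. Summed over the 36 members, relative density in H3K79me2 was 0.68 in D546R (0.53 to 0.85), 0.62 in D544R (0.52 to 0.74) and 0.63 in WT (0.53 to 0.73). In H3K79me3 it was 0.77 in D546R (0.60 to 0.97), 0.54 in D544R (0.44 to 0.66) and 0.62 in WT (0.50 to 0.76). All 6 intervals ended below 1. The 8 other-tissue marker genes summed to 0.83 (D546R), 0.84 (D544R) and 0.79 (WT) in H3K79me2. In H3K79me3 they summed to 1.04 in D546R, 0.69 in D544R and 0.65 in WT. The member intervals of D546R in H3K79me2 and of WT in H3K79me3 include these values. A level below silent genes in general is thus not shown. In bulk chromatin, fewer marked cells and less mark per cell cannot be told apart. In H3K79me2, 8 members in D546R, 3 in D544R and 3 in WT were above the olfactory receptor density, and none reached 2 times it. In H3K79me3, 11 members in D546R, 3 in D544R and 9 in WT were above it. There 3 in D546R, 0 in D544R and 2 in WT reached 2 times it. The share of all regions past these densities was not computed. For scale, Pdx1 at 1.03 in D546R stood at percentile 61.3 of all regions in H3K79me3, and Gsx2 at 1.01 in WT at 60.1. Hoxd10 at 2.21 in D546R stood at percentile 90.9 in that mark. The median region of the table had a relative density of 1.12 in D546R, 1.17 in D544R and 1.09 in WT in H3K79me2, and 0.87 in D546R, 0.83 in D544R and 0.87 in WT in H3K79me3. The median member stood at percentile 22.2 (D546R), 10.4 (D544R) and 12.5 (WT) of all regions in H3K79me2 and at 31.8 in D546R, 24.7 in D544R and 25.3 in WT in H3K79me3.

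No single order of the clusters held in all libraries. HoxB stood in H3K79me2 at 0.57 in D546R, 0.65 in D544R and 0.70 in WT, and in H3K79me3 at 1.06 in D546R, 0.67 in D544R and 0.82 in WT. HoxC stood in H3K79me2 at 0.74 in D546R, 0.59 in D544R and 0.52 in WT, and in H3K79me3 at 0.35 in D546R, 0.47 in D544R and 0.67 in WT. HoxD stood in H3K79me2 at 0.75 in D546R, 0.66 in D544R and 0.70 in WT, and in H3K79me3 at 0.81 in D546R, 0.52 in D544R and 0.47 in WT. The widest gap was in H3K79me3 of D546R, between HoxB at 1.06 (0.70 to 1.54) and HoxC at 0.35 (0.13 to 0.73). Within each library the fragment intervals of the 3 clusters overlapped, and the order of the clusters was not the same in the different libraries. For the widest gap the overlap was slight. Overlap of separate intervals does not test a difference, and no test between clusters was run. Over members that overlap no other member, HoxB stood at 0.381 in D544R in H3K79me2 and HoxD at 0.755 in WT in H3K79me3. Evx, Cdx, and Pdx1 with Gsx lay between 0.28 and 1.18 in the 6 libraries, with wider intervals.

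HoxA, the cluster that MLL fusions are known to bind, stood apart in 4 of the 6 libraries. Its 11 genes summed to a relative H3K79me2 density of 1.04 in D546R (0.74 to 1.41), 7.15 in D544R (6.56 to 7.77) and 4.85 in WT (4.40 to 5.32). In H3K79me3 HoxA stood at 1.13 in D546R (0.81 to 1.54), 2.71 in D544R (2.32 to 3.15) and 2.53 in WT (2.13 to 2.99). In D546R these intervals overlapped those of the 36 members in both marks, whereas in D544R and WT they overlapped in neither. The HoxA genes with a promoter sequence lie on the minus strand, and those of HoxB, HoxC and HoxD on the plus strand. Their regions thus appear to hold the added 2 kb on different sides of the gene, and its part in these densities was not tested. Within paralogue groups, the HoxA gene was the densest in 7 of 11 groups in D546R, 11 of 11 in D544R and 11 of 11 in WT in H3K79me2. In H3K79me3 it was the densest in 3 groups in D546R, 11 in D544R and 8 in WT. Hoxa9, the leukemia gene of the cluster, had a relative H3K79me2 density of 2.97 in D546R, 24.6 in D544R and 15.5 in WT. Its paralogue Hoxd9 had 0 counts in D546R, 4 in D544R and 9 in WT in H3K79me2. The paralogues Hoxb9 and Hoxc9 had 5 and 13 counts in D546R, 3 and 15 in D544R, and 19 and 15 in WT.

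**Figure D2:**
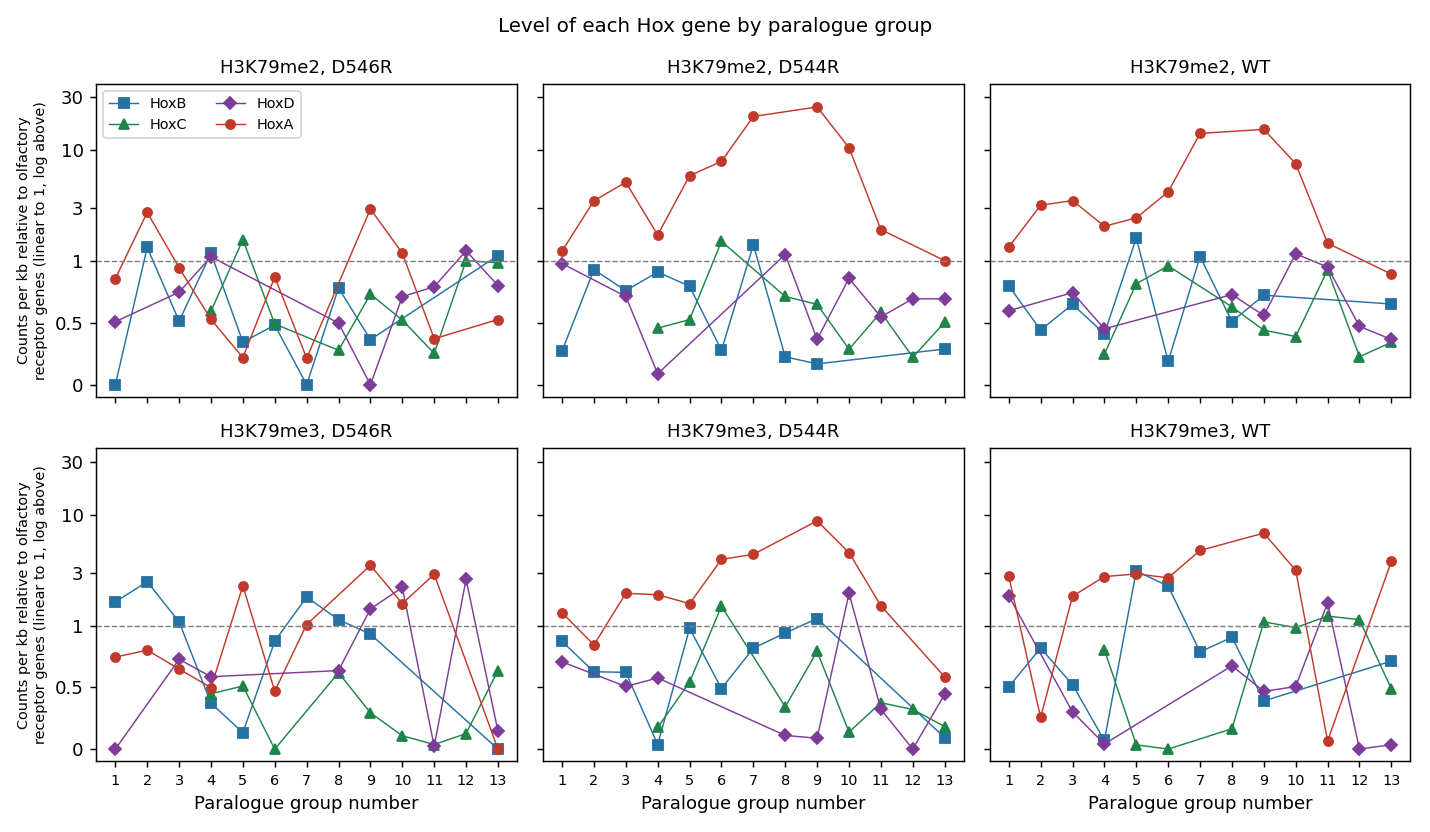
Counts per kb relative to olfactory receptor regions (vertical axis) for Hox genes by paralogue group (horizontal axis), with one panel per library and one marker per cluster. In H3K79me2 the HoxA gene is the densest of its group in 7 of 11 groups in D546R and in 11 of 11 in D544R and WT, up to 24.6 for Hoxa9 in D544R. In H3K79me3 it is the densest in 3 groups in D546R, 11 in D544R and 8 in WT.

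D546R was set against WT for these genes. In WT the 36 members already stood at only 0.63 (H3K79me2) and 0.62 (H3K79me3) times the olfactory receptor density. A loss from that level could hardly be seen. The ratios therefore do not show whether methylation of these genes depends on the residue exchanged in D546R. No member changed by the rule used. The rule takes a gene as called when it differs at least 2-fold, its fragment interval excludes no change and its mean normalised count is at least 100. In H3K79me2 none of the 36 reached that mean, so 0 were called lower and 0 higher, where the rule called 0.853% of 8905 genes lower and 0.853% higher. In H3K79me3 only Hoxb3 and Hoxd3 reached it and neither was called, where the rule called 5.55% of 10824 genes lower and 4.26% higher. The summed counts carried more information. Over the 36 members the log2 ratio of D546R to WT was -0.00 (-0.42 to 0.41) in H3K79me2 and 0.36 (-0.10 to 0.82) in H3K79me3. HoxA, by the same sum of normalised counts, had -2.34 (-2.84 to -1.88) in H3K79me2 and -1.12 (-1.66 to -0.60) in H3K79me3. The H3K79me2 intervals of the 36 members and of HoxA did not overlap, nor did those in H3K79me3. In WT, HoxA stood at 4.85 (H3K79me2) and 2.53 (H3K79me3) times the olfactory receptor density. HoxA, unlike the 36 members, thus had signal to lose.

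D544R against WT gave log2 ratios near 0 for the whole set, -0.11 (-0.46 to 0.24) in H3K79me2 and -0.07 (-0.50 to 0.36) in H3K79me3. None of the members was called. The background of the rule was 0.0112% lower and 0.0337% higher in H3K79me2, and 1.66% lower and 2.91% higher in H3K79me3. HoxA had 0.47 (0.29 to 0.66) in H3K79me2 and 0.22 (-0.11 to 0.55) in H3K79me3. Set against D544R, the D546R sum over the 36 members was 0.10 (-0.33 to 0.53) in H3K79me2 and 0.44 (-0.02 to 0.89) in H3K79me3. Again 0 members were called, against 0.865% of genes lower and 0.752% higher in H3K79me2 and 5.16% lower and 3.77% higher in H3K79me3. The mutants share the WT library in the first 2 comparisons, so these are not independent.

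**Figure D3:**
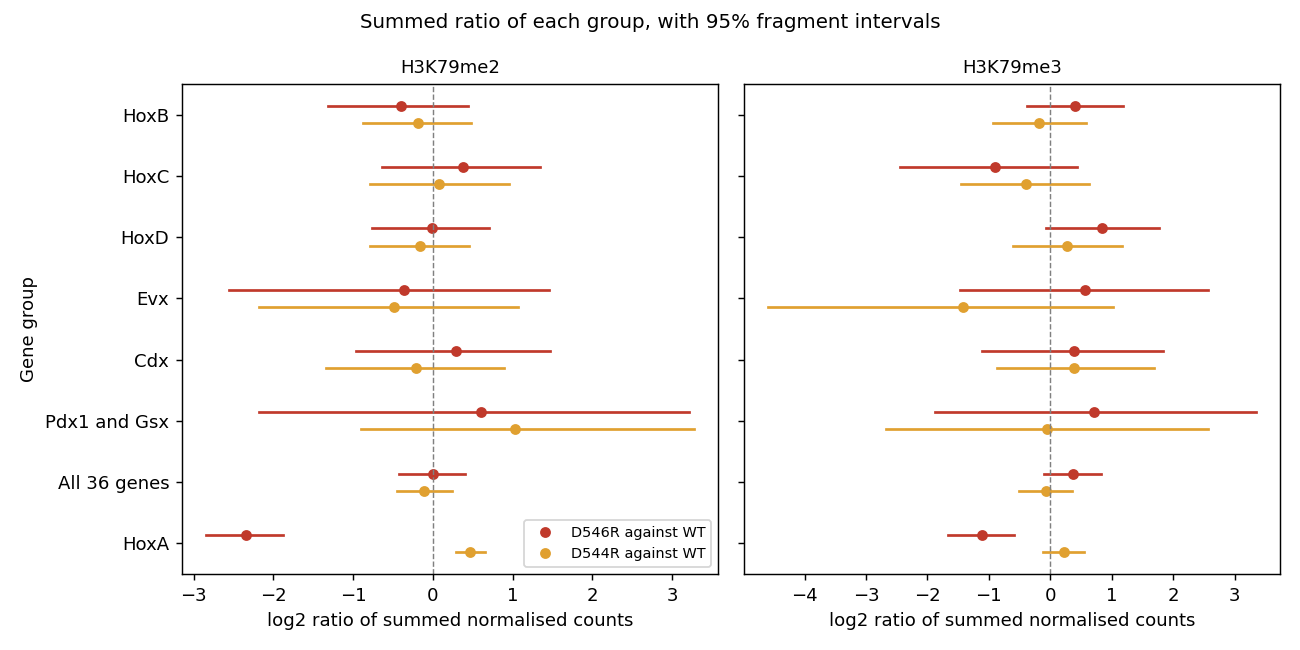
Log2 ratio of summed normalised counts (horizontal axis) of each mutant against WT for the member groups, all 36 members and HoxA, in both marks, with bars for 95% fragment intervals. Every member group's bar spans 0, and the HoxA bar of D546R lies wholly below 0 in both marks. The HoxA bar of D544R lies wholly above 0 in H3K79me2 and spans 0 in H3K79me3.

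Several HoxB genes have known ties to blood: Hoxb4 expands blood stem cells when forced on, and Hoxb5 marks long-term stem cells in the mouse. In H3K79me2, HoxB summed to 78 counts in D546R, 115 in D544R and 182 in WT, a log2 ratio of -0.40 (-1.32 to 0.44) for D546R and -0.19 (-0.87 to 0.48) for D544R against WT. In H3K79me3 it summed to 499 counts in D546R, 248 in D544R and 316 in WT, with 0.41 (-0.39 to 1.19) for D546R and -0.18 (-0.94 to 0.58) for D544R. No interval excluded 0. Over members that overlap no other member the D544R ratio was -0.88 in H3K79me2 and 0.52 in H3K79me3, and the median member gave -1.33 for D546R in H3K79me2. In H3K79me2 only Hoxb3 reached 30 counts, with 26 in D546R, 50 in D544R and 63 in WT. Hoxb4 had 12 counts in D546R, 12 in D544R and 8 in WT in H3K79me2, and 13 in D546R, 1 in D544R and 2 in WT in H3K79me3. The stem cell gene thus had no more than 13 counts in any library.

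The H3K79me3 reads of HoxB were uneven from gene to gene. Hoxb3 (NM_001079869, mm9 chromosome 11, 96182439 to 96209244), the longest region of the cluster, had 189 counts in D546R, 85 in D544R and 74 in WT. Its log2 ratio of D546R to WT was 1.10, with a counting interval of 0.71 to 1.51 and a fragment interval of -0.40 to 2.67. The difference lay outside the counting error of single reads but not of independent fragments. By the counting interval Hoxb3 and Hoxd3 were past the 2-fold rule in D546R against WT, as were 6.95% of genes upward. Hoxb5 (NM_008268, chromosome 11, 96162825 to 96167435) went the other way, with 4 counts in D546R, 23 in D544R and 76 in WT. Its log2 ratio of D546R to WT was -4.31 (counting interval -6.41 to -3.08), and the fragment interval reached 0.14. Hoxb6 (96158484 to 96162883), which overlaps only the end of the Hoxb5 region, had 25 counts in D546R, 11 in D544R and 53 in WT. These neighbours were both highest in WT, where Hoxb5 and Hoxb6 stood at 3.12 and 2.28 times the olfactory receptor density. How many reads they share was not tested.

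The hindbrain genes Hoxb1 and Hoxb2 had more H3K79me3 reads in D546R than in WT. Hoxb1 had 48 counts in D546R, 20 in D544R and 12 in WT. Hoxb2 had 71 in D546R, 14 in D544R and 19 in WT, a log2 ratio of 1.63 (-1.22 to 5.19) for D546R against WT. Hoxb7 had 65 in D546R, 23 in D544R and 23 in WT. Hoxb8, which can hold myeloid progenitors in an immature state when forced on, had 40 in D546R, 26 in D544R and 26 in WT. Hoxb9 had 44 in D546R, 43 in D544R and 15 in WT. The 5 genes were all highest in D546R as raw counts (after normalisation Hoxb9 was highest in D544R), but that library also had the largest total and the most reads per fragment, and the part of either in the result was not tested. Hoxb13, a gene of the tail and prostate, had 0 in D546R, 2 in D544R and 16 in WT. In H3K79me2, Hoxb7 had 0 in D546R, 19 in D544R and 22 in WT, and its H3K79me3 counts did not show that order. The fragment intervals of these differences of Hoxb13 and Hoxb7 between D546R and WT included no change.

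HoxC genes pattern the trunk, skeleton, skin and hair, and Hoxc4 is also expressed in blood progenitors. The cluster summed in H3K79me2 to 75 counts in D546R, 78 in D544R and 102 in WT, a log2 ratio of 0.37 (-0.64 to 1.34) for D546R and 0.08 (-0.79 to 0.95) for D544R against WT. In H3K79me3 it summed to 121 in D546R, 128 in D544R and 190 in WT, with -0.90 (-2.45 to 0.44) for D546R and -0.40 (-1.45 to 0.64) for D544R. In H3K79me2 every HoxC count lay between 2 and 18. In H3K79me3, Hoxc9 had 18 counts in D546R, 38 in D544R and 54 in WT. Hoxc10 had 5 in D546R, 5 in D544R and 37 in WT. Hoxc13, needed for hair, had 40 in D546R, 9 in D544R and 25 in WT. The 3 genes did not share an order of libraries. Hoxc6 had 0 counts in D546R, 33 in D544R and 0 in WT, and the fragment interval of D544R against WT included no change. Those 33 reads amount to about 4 fragments at the upper estimate of 8.12 reads each. The other HoxC genes had 1 to 27 counts in H3K79me3.

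HoxD genes pattern limbs and the genital tract, and Hoxd13 is known as a fusion partner of NUP98 in human leukemia. The cluster summed in H3K79me2 to 118 counts in D546R, 135 in D544R and 210 in WT, a log2 ratio of -0.01 (-0.77 to 0.70) for D546R and -0.17 (-0.79 to 0.45) for D544R against WT. In H3K79me3 it summed to 440 in D546R, 221 in D544R and 206 in WT. The H3K79me3 log2 ratio was 0.84 for D546R (fragment interval -0.07 to 1.76, counting interval 0.60 to 1.09) and 0.27 (-0.60 to 1.17) for D544R. It was the highest D546R ratio of the 3 clusters in H3K79me3, where HoxC had the lowest at -0.90, and its fragment interval included 0. The D544R value turned to -0.63 as the median member, to -0.42 over members that overlap no other and to -0.08 without Hoxd3. Hoxd3 (NM_010468, chromosome 2, 74548049 to 74586328) supplied much of it, with 181 counts in D546R, 99 in D544R and 61 in WT. Its log2 ratio to WT was 1.31 (-0.28 to 3.04) in D546R and 0.87 (-0.63 to 2.53) in D544R. In H3K79me2 the same gene had 54 counts in D546R, 67 in D544R and 103 in WT, the highest member in every library.

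Hoxd12 (NM_008274, chromosome 2, 74511069 to 74515762), a gene of the distal limb, was the one member whose fragment interval excluded no change. It had 80 H3K79me3 counts in D546R, 0 in D544R and 0 in WT. With no minimum on the mean it passed the 2-fold rule upward, as did 3.78% of all genes against WT and 3.44% against D544R. The fragment interval of its log2 ratio began at 0.24 against WT and at 0.33 against D544R, with no upper end. The 80 reads amount to about 4.3 fragments at the upper estimate of reads per fragment. The mean normalised count of Hoxd12, 22.8, lay below the minimum of 100. Among genes with a mean of at least 10, 5.72% had an interval above no change and 5.78% one below it in this comparison, against 1 and 0 of 33 members. Against D544R the shares were 5.14% above and 5.69% below, again beside 1 and 0 of 33 members. A count of 1 in 33 is no more than the table as a whole gave. In the other comparisons no member with a mean of at least 10 had such an interval. The shares of all genes there were 4.84% above and 3.26% below in D544R against WT in H3K79me3. In H3K79me2 they were 6.9% and 2.43% in D546R against WT, 1.02% and 0.97% in D544R against WT, and 6.39% and 2.25% in D546R against D544R. In H3K79me2 Hoxd12 had 11 counts in D546R, 8 in D544R and 8 in WT.

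Its HoxD neighbours did not move as a block in H3K79me3. Hoxd10 had 75 counts in D546R, 52 in D544R and 14 in WT, a log2 ratio of 2.13 (-0.86 to 6.46) for D546R and 2.03 (-0.63 to 6.23) for D544R. Hoxd9 had 41 in D546R, 2 in D544R and 11 in WT. Hoxd11, a gene of the forearm that lies between Hoxd12 and Hoxd10, had 1 in D546R, 11 in D544R and 57 in WT. The ratio of Hoxd11 in D546R to WT was thus opposite in sign to those on both sides of it. Hoxd1 at the other end of the cluster had 0 in D546R, 15 in D544R and 41 in WT, and the fragment interval of D546R against WT included no change. Hoxd4 had 35 in D546R, 27 in D544R and 2 in WT. Hoxd8 and Hoxd13 stayed between 1 and 22 counts in every library.

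Evx1 and Evx2 are even-skipped relatives that act in the early embryo and in spinal interneurons, and they lie beside HoxA and HoxD. In H3K79me3 Evx1 had 76 counts in D546R, 3 in D544R and 14 in WT, a log2 ratio of 2.15 (-0.83 to 6.48) for D546R against WT. Evx2 had 21 in D546R, 15 in D544R and 41 in WT. The pair went in opposite directions in D546R. Together they gave 0.56 (-1.47 to 2.57) for D546R and -1.42 (-4.59 to 1.01) for D544R against WT, and without Evx1 the D546R value was -1.19. In H3K79me2 they gave -0.36 (-2.56 to 1.45) for D546R and -0.49 (-2.18 to 1.07) for D544R. In WT in H3K79me2, Evx1 stood at 0.93 times the olfactory receptor density and Hoxa13, the HoxA gene at that end of the cluster, at 0.90.

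Among the ParaHox genes, the Cdx genes act upstream of Hox genes, and CDX2 is often switched on in human acute myeloid leukemia. Cdx1 had 24 counts in D546R, 23 in D544R and 46 in WT in H3K79me2, and 92 in D546R, 95 in D544R and 45 in WT in H3K79me3. Its H3K79me3 log2 ratio to WT was 0.77 (-1.38 to 2.97) in D546R and 1.24 (-0.41 to 3.19) in D544R. Cdx2 had 13 in D546R, 11 in D544R and 12 in WT in H3K79me2, and 61 in D546R, 14 in D544R and 28 in WT in H3K79me3. Cdx4, which takes part in embryonic blood formation, had 13 in D546R, 11 in D544R and 14 in WT in H3K79me2, and 4 in D546R, 8 in D544R and 28 in WT in H3K79me3. As a group the Cdx genes gave 0.29 (-0.96 to 1.47) for D546R and -0.21 (-1.34 to 0.89) for D544R against WT in H3K79me2. In H3K79me3 they gave 0.38 (-1.12 to 1.84) for D546R and 0.38 (-0.87 to 1.69) for D544R. These values rest on Cdx1, and without it they were -0.04 for D546R and -1.16 for D544R in H3K79me3. In H3K79me2 the D546R value was 0.80 and the D544R value 0.22 without Cdx1. Pdx1, the master regulator of the pancreas, had 47 counts in D546R, 2 in D544R and 9 in WT in H3K79me3. The forebrain genes Gsx1 and Gsx2 stayed between 0 and 23 counts in all 6 libraries. Pdx1 and the Gsx genes together gave 0.60 (-2.18 to 3.21) for D546R and 1.02 (-0.90 to 3.27) for D544R against WT in H3K79me2, and 0.72 (-1.87 to 3.35) for D546R and -0.06 (-2.67 to 2.57) for D544R in H3K79me3. Without the member with the most counts they were -0.70 for D546R in H3K79me2 (Gsx2 left out) and -0.56 for D546R and 0.28 for D544R in H3K79me3 (Pdx1 left out).

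The marks were also set against each other, by subtracting each group's log2 ratio in H3K79me2 from the one in H3K79me3. For D546R against WT the difference was 0.81 for HoxB, -1.27 for HoxC, 0.86 for HoxD and 0.37 for all 36. For D544R against WT it was 0.01 for HoxB, -0.48 for HoxC, 0.44 for HoxD and 0.03 for all 36. The D546R differences thus pointed both ways among the clusters. Counting each member with a mean of at least 10 on its own, 7 were above and 11 below WT in D546R in H3K79me2, with a median log2 ratio of -0.15 beside 0.01 over all such genes. In D544R 10 were above and 8 below, with a median of 0.06 beside -0.00. In H3K79me3 19 were above and 13 below in D546R, with a median of 0.77 beside -0.00. There 13 were above and 19 below in D544R, with a median of -0.81 beside -0.01. Over all such genes 49.7% were above WT in D546R and 49.0% in D544R in H3K79me3. The standard deviation of the members' H3K79me3 log2 ratios was 2.85 in D546R and 2.06 in D544R. Among all genes with a mean of 10 to 60 it was 2.98 and 1.97. With that spread the H3K79me3 medians are uncertain. These medians rest on 18 of the 36 members in H3K79me2 and 33 in H3K79me3, and each H3K79me3 comparison includes 1 member with 0 counts in both libraries. With genes at 0 set to 3 counts the medians were the same. They and the sums do not have the same sign throughout.

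In H3K79me2 each cluster lay below the regions around it, by much around HoxC and HoxD and by less around HoxB. Around HoxC (mm9 chromosome 15, 102749561 to 102867283), 12 regions within 250 kb summed to a relative H3K79me2 density of 4.97 in D546R, 4.81 in D544R and 4.13 in WT, against 0.74 in D546R, 0.59 in D544R and 0.52 in WT for the HoxC genes. The densest by H3K79me2 in WT was Gm10052, which shares nearly the whole region of Hnrnpa1, an RNA-binding protein gene, at 17.3 in D546R, 18.3 in D544R and 17.8 in WT. The densest by H3K79me3 in WT was Nfe2, a blood transcription factor gene, at 3.26 in D546R, 2.84 in D544R and 6.37 in WT. The nearest regions, Cistr-act and D930007P13Rik, had H3K79me2 densities of 0.65 and 0.66 in D546R, 1.16 and 0.62 in D544R, and 0.34 and 0.83 in WT.

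Around HoxD (chromosome 2, 74504366 to 74603199), the flanking genes Lnp and Mtx2 had relative H3K79me2 densities of 4.43 and 3.21 in D546R, 3.29 and 2.76 in D544R, and 2.61 and 3.10 in WT. The HoxD genes stood at 0.75 in D546R, 0.66 in D544R and 0.70 in WT. Around HoxB (chromosome 11, 96053674 to 96229567), the 10 flanking regions summed to 1.17 in D546R, 1.11 in D544R and 0.97 in WT, beside 0.57 in D546R, 0.65 in D544R and 0.70 in WT for the HoxB genes. Atp5g1 and Ube2z were the dense genes there, at 4.02 and 4.32 in D546R, 5.34 and 3.47 in D544R, and 4.13 and 3.30 in WT. The nearest genes to HoxB were Gm11529 and Ttll6, a tubulin-modifying enzyme gene. Ttll6 had 47 H3K79me3 counts in D546R, 175 in D544R and 195 in WT, and was called lower in D546R than in WT at -2.29, where 5.55% of genes were. In the same comparison 2 other genes near HoxB, Igf2bp1 at 1.26 and Calcoco2 at 1.41, were called higher, where 4.26% of genes were. Near HoxC, Nfe2 was called lower in D544R than in WT in H3K79me3 at -1.05, where 1.66% of genes were. Igf2bp1 and Calcoco2 were named after their values were seen.

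**Figure D4:**
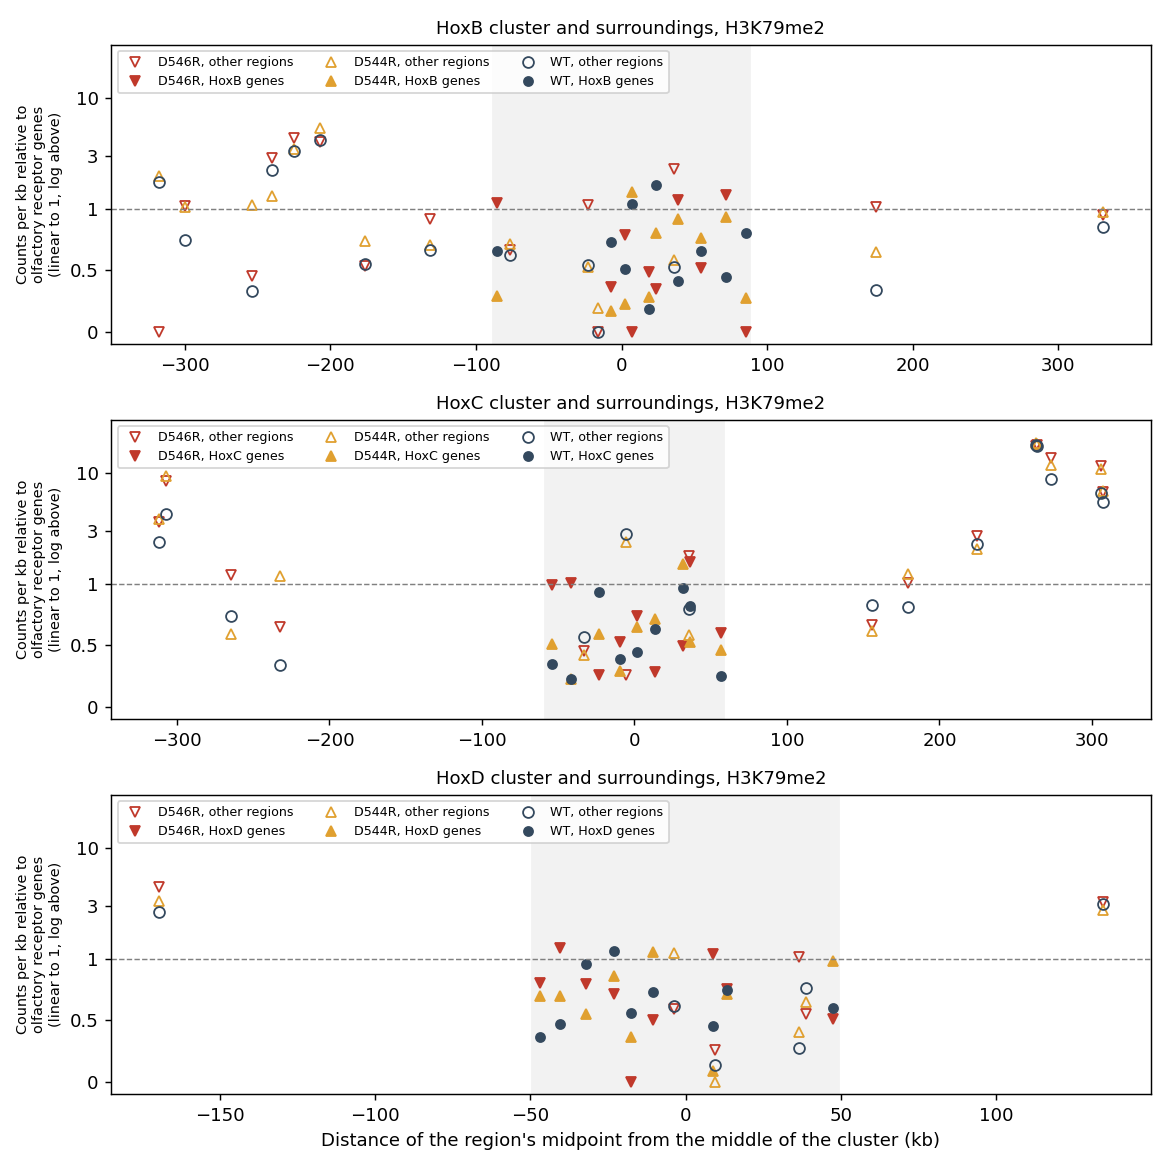
H3K79me2 counts per kb relative to olfactory receptor regions (vertical axis) against distance in kb from the middle of HoxB, HoxC and HoxD (horizontal axis), with filled points for members and open points for other regions. Members lie near or below 1 in D546R, D544R and WT alike, and open points near HoxC reach 17 to 18.

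Noncoding regions inside the spans ranged from 0 to above every member. Hotair, an antisense RNA gene within HoxC, had 5 H3K79me2 counts in D546R, 6 in D544R and 12 in WT, and in H3K79me3 149 in D546R, 18 in D544R and 29 in WT. Its H3K79me3 log2 ratio of D546R to WT was 2.09 (0.05 to 4.67), and its mean lay under 100. Its relative density in H3K79me3 was 3.90 in D546R, 0.60 in D544R and 0.93 in WT, and the D546R value was above that of every member in that library. The 3 noncoding regions inside HoxC summed to 2.59 in D546R, 0.45 in D544R and 1.01 in WT in H3K79me3. Its region overlaps none of the HoxC members, and whether counting used strand is not stated. Mir196a-1, whose mature sequence is shown above, had 34 H3K79me3 counts in D546R, 9 in D544R and 19 in WT, while Mir196a-2 had 20 in D546R, 5 in D544R and 25 in WT. In H3K79me2 Mir196a-2 had a relative density of 0.26 in D546R, 2.35 in D544R and 2.80 in WT, on 1 count in D546R, 12 in D544R and 21 in WT. Gm53 in HoxB had 2 H3K79me3 counts in D546R, 17 in D544R and 34 in WT, and 6720416L17Rik in HoxD had 50 in D546R, 21 in D544R and 12 in WT. Mir10a had 0 H3K79me3 counts in all 3 libraries. Mir10b had 0 in D546R, 7 in D544R and 1 in WT. The microRNA regions, nearly all of which is the added 2 kb, thus gave no shared order of libraries for the shared seeds.

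Genes that work with or on Hox genes had more reads. Of 7 HOX cofactor genes (Meis and Pbx families) 5 reached the mean of 100 in each mark. Meis1, a direct partner of HOX proteins in leukemia, was called lower in D546R against WT in both marks, at -3.12 (-3.43 to -2.83) in H3K79me2 and -2.64 (-3.04 to -2.25) in H3K79me3, and it was called lower against D544R in both marks too. Pbx3 was called higher in D544R against WT in H3K79me3, at 1.00 (0.65 to 1.37). Of 28 Polycomb, Trithorax and other Hox regulator genes in the table, 14 reached the mean in H3K79me2 and none was called in any comparison. In H3K79me3 15 reached it, and the Polycomb genes Ezh2 (-1.03), Suz12 (-1.16) and Rnf2 (-1.26) were called lower in D546R against WT, where 5.55% of genes were. In H3K79me2 the log2 ratio of D546R to WT was -0.13 for Ezh2, -0.49 for Suz12 and 0.46 for Rnf2. Phc2 was called higher in D544R against WT in H3K79me3, at 1.43, and Phc3 lower in D546R against D544R, at -1.04.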

How the data were processed

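Counts of 6 H3K79me2 and H3K79me3 libraries were used, 1 for each of 3 genotypes and 2 marks. Per the file headers, the authors deposited raw read counts per region from 2 kb before the start to the transcript end. They gave mm9 coordinates and no strand, and did not say on which side the 2 kb was added for minus-strand genes. Set against GRCm38.p6 starts, the regions of the minus-strand genes Cdx2 and Hoxa13 ended near the gene start. The added 2 kb thus appears to lie past the transcript end in minus-strand genes, HoxA among them. Per the labels, each library joins several sequencing runs. Bowtie, bedtools, DESeq and mm9 appear in the submitters' processing notes without versions or roles. Whether duplicates were removed is not stated, and no input library was used.

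Members and lists were chosen with earlier results of these data known. Size factors were medians of ratios within each mark, over 23029 and 20863 genes, and were 0.764 (D546R), 0.972 (D544R) and 1.35 (WT) in H3K79me2 and 1.17 in D546R, 0.872 in D544R and 0.982 in WT in H3K79me3. Ratios used a prior count of 0.5. Intervals were exact conditional binomial 95% intervals, on counts or on counts divided by reads per fragment, which covers counting error only. Unreachable regions would also be at 0, so reads per fragment is an upper estimate. The scripts were tested on simulated data. Members with at least 30 counts in a library of a comparison were named with all values; other genes were chosen by position or as HoxA. Cofactor and regulator genes named were those past the rule, chosen after their values were seen. Python 3.11.15, scipy 1.17.1, R 4.3.3 and edgeR 4.0.16 (TMM factors as an alternative) were used.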

Additional observations from a re-analysis of the deposited data

How the results depend on the processing

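With scaling by totals, TMM, size factors over all 6 libraries or olfactory receptor counts, and with other minimums, folds, prior counts and summaries, 1430 recomputed values stayed within their error or near their count and 10 did not. None of the member groups' ratios was called, and the sign of an uncalled ratio turned in part of them: in 23 of 178 recomputed group sums, 7 of 1080 member ratios and 1 of 14 differences between marks. The 1080 member ratios rested on few counts and had wide fragment intervals. Rescaling shifted a ratio by no more than about 0.12, so it could hardly have moved them out of their error. Counts of members past the rule could not change where no member reached the minimum mean. The total of 1430 is therefore no measure of how firm these results are. With no count minimum, 1 member (Hoxd12) was past the rule upward in H3K79me3 in D546R against WT and 1 (Hoxd12) against D544R, where 3.78% and 3.44% of all genes were. With counting intervals not widened, 2 members (Hoxb3 and Hoxd3) were past it upward in D546R against WT, where 6.95% of genes were. The median of members in place of the sum gave -1.33 for HoxB in D546R in H3K79me2, -0.63 for HoxD in D544R in H3K79me3 (0.27 as a sum) and -0.81 for all 36 members in D544R in H3K79me3, each against WT. Members that overlap no other member gave -0.88 for HoxB in D544R against WT in H3K79me2, a relative density of 0.381 for HoxB in D544R in H3K79me2, and 0.755 for HoxD in WT in H3K79me3. Without Cdx1, the Cdx sum of D544R against WT in H3K79me3 was -1.16 (0.38 with it). The cause was not tested. A median of Pdx1 and the Gsx genes in H3K79me2 could not be computed, since no member had a mean of 10. With the olfactory receptor reference the median over all genes shifted by 0.12 in H3K79me2 in D546R and by -0.12 in H3K79me3 in D544R, each against WT. Low counts limit every member. By the upper estimate of reads per fragment most rest on a few fragments, and the true number may be higher. No paired analysis was possible because each group held 1 library and the results come from no test.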
